A study of Homo sapiens with 6 samples.

Results

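The comparison described here is between P493-6 B cells whose c-Myc had been released from repression for 1 hour and the same cells with no release, read on 4 of the 6 arrays of the series. This human line, labelled B-cell lymphoma, carries a c-Myc transgene that tetracycline shuts off, and all groups are this one line, grown in the same medium with serum. The low-Myc group (2 arrays) had 0 hours of release, the mid-Myc group (2 arrays) 1 hour and the high-Myc group (2 arrays) 24 hours. The design text calls the 2 arrays of each group biological duplicates. All human probe sets that carried a single gene symbol entered the comparison, 1 probe set for each gene, which gave 12198 genes above a floor of brightness. The comparison rests on a single cell line with 1 release protocol, and the high-Myc arrays are shown only beside it.

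c-Myc is a transcription factor that pairs with MAX, binds DNA at the E-box hexamer CACGTG and drives genes of ribosome production, translation, nucleotide supply and metabolism. In resting lymphocytes it is itself one of the early genes that a mitogen switches on. Ahead of such growth genes come the immediate early genes, which signalling through the MAP kinase, cyclic AMP and calcium pathways induces without new protein synthesis, and whose products include both transcription factors and the phosphatases and phosphodiesterases that turn the same signals off. DNA replication and mitosis genes follow only as cells approach S phase and division.

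The labels leave limits that touch every value below. Of the protocol fields of the mid-Myc samples, one says 0 hours of release and another says 1 hour; the latter was taken, as their source is described as having a moderate c-Myc level. Their sample numbers stand apart from those of the low-Myc and high-Myc samples, and if they were run as a separate batch, its effect cannot be told apart from that of the release. Whether the 0-hour cells were washed and handled like those at 1 hour is not stated in the labels, and that handling cannot be told apart from the release either.

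Values are microarray intensities, and differences are mid-Myc minus low-Myc on the log2 scale, where 1 is a doubling. The equal-median scale sets the median of the human probe sets to the same value on every array. On the per-cell scale a curve through 100 ERCC probe sets, which read synthetic RNAs added by cell number, was subtracted from each array. The 33 ERCC probe sets of middle brightness were 1.28-fold lower in the mid-Myc than in the low-Myc arrays. Within a group the duplicates correlated at 0.996 across genes, which are not independent replicates. Summed intensities of the 6 arrays ran from 12519520 to 13045340, and the small number of arrays limits the precision. Errors after ± are standard errors of the limma fit, and adjusted p-values are from limma with Benjamini-Hochberg adjustment over all 12198 genes. They rest on the spread between 2 arrays per group and on a spread borrowed across genes. With 2 arrays a side the smallest p of an exact two-sided permutation test is 0.333, so none is given for single genes.

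After 1 hour of release few genes rose by 2-fold or more, and whether the bulk of genes shifted depended on the scaling. On the equal-median scale 3139 genes (25.7%) were called higher and 414 (3.39%) lower at an adjusted p under 0.05, but only 46 rose by 2-fold or more and 1, HPX, fell that far in measured value. The median of all genes lay at 0.092 on that scale, and it lay at -0.022 after quantile normalization, -0.010 after cyclic loess and -0.024 with arrays centred on the tested genes. The share of calls that were higher moved with it, from 88.3% with equal medians to 58.6% centred on the tested genes, 50.5% with cyclic loess and 44.4% with quantile normalization. A gene is therefore said to have risen or fallen below only where it was called with that sign under all 4 of these relative scalings, and the value quoted is the equal-median one. By that rule 899 genes (7.37%) rose, by a median of 0.46, and 360 (2.95%) fell, by a median of 0.34. Of these, 251 rose and 34 fell by 1.5-fold or more. Without low-Myc replicate 1 the counts of risen and fallen genes were 578 and 179, without low-Myc replicate 2 they were 501 and 173, without mid-Myc replicate 1 they were 427 and 155, and without mid-Myc replicate 2 they were 474 and 216. The equal-median calls also thinned, to 1895 higher without low-Myc replicate 2 and 1942 without mid-Myc replicate 2, and to between 200 and 275 lower without any 1 of the 4 arrays. Of the 134 called genes named below, 96 kept the call under all 4 scalings without each of the 4 arrays in turn and 38 lost it without at least 1 array, 1 of these among the 40 largest rises and falls. Each gene was read by its brightest probe set, and with the mean of all its probe sets 24 of the named genes lost the call. Values that moved by over 1.5 times are given with each called gene whose difference is given. The same holds for calls lost without an array or with the mean of all probe sets. Calls lost with no variance trend are not given by gene, and only their count is given at the end. The level of 142 intensity, the 90th percentile of the background probe sets, was reached in neither group by 11 of the named genes, for which no difference is given, and in 1 group only by 23, for which the bound against that level is added to the measured difference. Each bound is a measured fold with the dimmer arrays set to that level where they lay under it. It carries no error and is not the end of an interval.

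Counted per cell, 7649 genes (62.7%) were called higher and 82 (0.672%) lower, and the median of all genes lay at 0.30. The count of lower genes was 52 without low-Myc replicate 2. All 899 risen genes were also called higher per cell. Of the 360 fallen genes, 82 were also called lower per cell, among them the 15 largest falls described below, and 278 were not called per cell. In bulk samples a change in how many cells express a gene and a change in its RNA per cell cannot be told apart. The shift of the bulk of genes depended on brightness. The dimmest decile of genes, with a median intensity of 38.2, had an equal-median median of -0.059, and the brightest decile, with a median intensity of 1801, had one of 0.21. With quantile normalization every decile lay between -0.042 and -0.007.

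**Figure D1:**
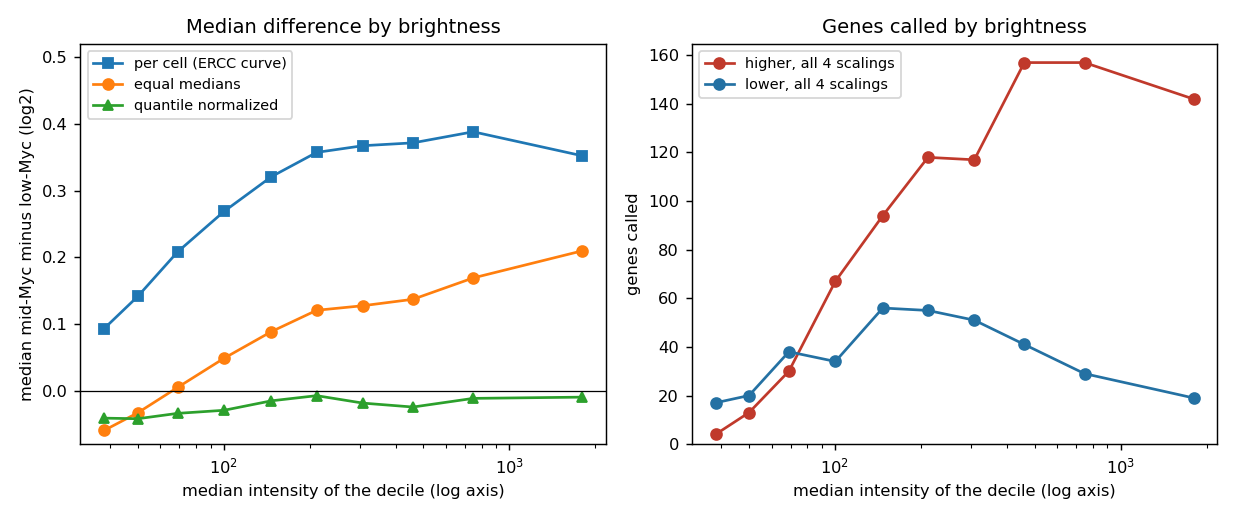
The left panel plots the median log2 difference, mid-Myc minus low-Myc, of each decile of the genes ordered by brightness (intensity, log axis) under 3 scalings, and the right panel counts the genes called under all 4 relative scalings in each decile. The equal-median line climbs from -0.059 to 0.21 with brightness while the quantile line stays near 0.

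**Figure D2:**
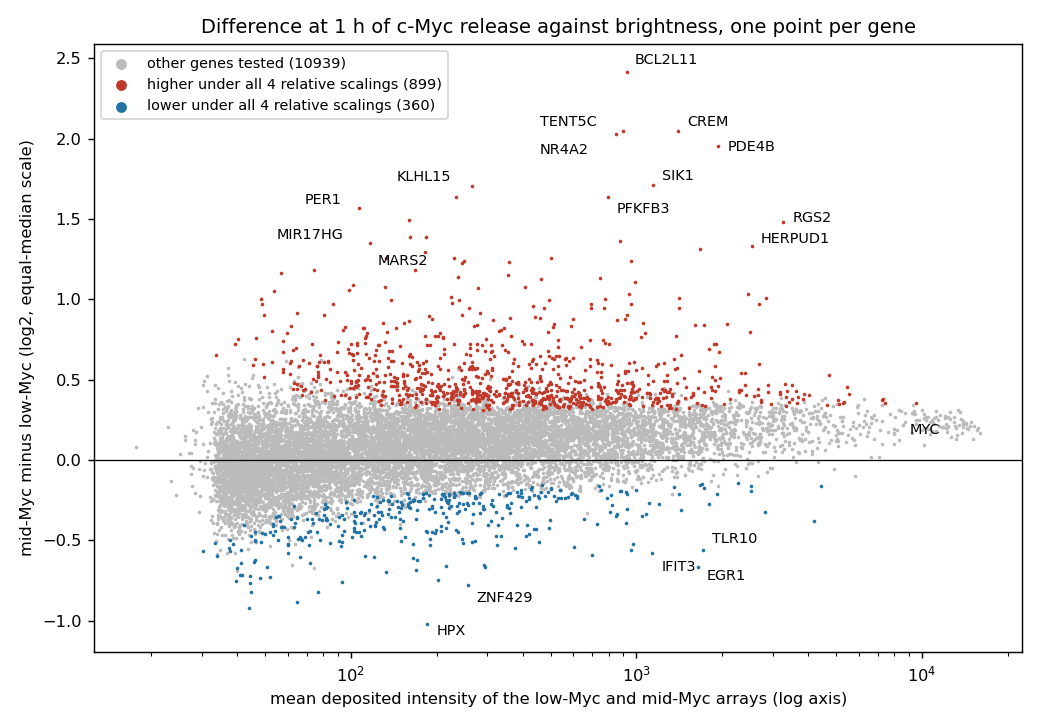
Each point is 1 of 12198 genes, at its mean deposited intensity in the 4 arrays (log axis) and its log2 difference on the equal-median scale. Red points are the 899 genes that rose and blue points the 360 that fell under all 4 relative scalings, and BCL2L11, CREM, TENT5C and NR4A2 stand above 2.

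MYC itself, on chromosome 8, was read by 1 very bright probe set at 10472 and 10279 at 0 hours, 10031 and 9941 at 1 hour and 11888 and 11979 at 24 hours. Its difference at 1 hour was 0.095 ± 0.031 with equal medians and 0.13 ± 0.028 per cell. The sign was not kept, since the value was -0.15 after quantile normalization, so MYC does not check the mid-Myc label. The sources used here do not say which of the transgene and the endogenous gene this probe set reads.

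Genes of cyclic AMP signalling were 4 of the 25 largest rises. CREM, on chromosome 10, encodes a CREB-family factor with a short repressor form, ICER, that is made from an internal promoter and dampens cyclic AMP responses. Its intensities were 629 and 558 at 0 hours, 2180.3 and 2229 at 1 hour and 321 and 363 at 24 hours. The mid-Myc arrays were both far above the low-Myc ones, and the difference was 2.05 ± 0.076 (adjusted p = 2.49e-09), or 4.13-fold. All 9 other probe sets of CREM had the same sign, with differences from 0.28 to 2.20. PDE4B, a phosphodiesterase that degrades cyclic AMP, read 899 and 819 at 0 hours, 2831 and 3189 at 1 hour and 236 and 237 at 24 hours. It rose 3.88-fold (1.96 ± 0.072, adjusted p = 2.49e-09). SIK1, a kinase that restrains the CREB coactivators, read 609 and 549 at 0 hours, 1726 and 1683 at 1 hour and 189 and 192 at 24 hours. It rose 3.27-fold (1.71 ± 0.065, adjusted p = 2.83e-09). RGS2, which shortens signalling by G proteins, read 1897 and 1823 at 0 hours, 4743 and 4616 at 1 hour and 34.4 and 35.8 at 24 hours. It rose 2.79-fold (1.48 ± 0.058, adjusted p = 3.07e-09). The arrays of the groups did not overlap in these 4 genes, which the rule for the largest rises required. Of 19 tested genes on the list of cyclic AMP responses, 6 rose and none fell (3 were lower with quantile normalization), with a list median of 0.25 beside 0.092 for all genes. The counts of risen and fallen members of each list stand beside 7.37% and 2.95% of all genes. The risen share of all genes depended on brightness, from 4 of 1220 in the dimmest decile to 157 of 1220 in each of deciles 8 and 9. Here and for the lists that follow, none fell means that limma called none lower under all 4 scalings. At an unadjusted p under 0.05 with equal medians, 0 members of such lists were lower, except 1 each for mRNA decay, RNA polymerase II and nuclear pore genes. The 24-hour arrays held all 4 genes below the 0-hour level in deposited intensity. Per cell, the 24-hour differences were 0.47 for CREM, -0.61 for PDE4B, -0.33 for SIK1 and -4.46 for RGS2, so CREM lay above its 0-hour level on that scale. CREM was at 1.248 with the mean of all probe sets.

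A start region of CREM is shown because it carries the full cyclic AMP response element, TGACGTCA, in capitals. The sequence runs from 100 bases before a listed transcript start to 25 bases into the transcript, on the plus strand at chr10:35195802-35195926 (GRCh38.p14, RefSeq), and the element begins 50 bases before the start.
CREM: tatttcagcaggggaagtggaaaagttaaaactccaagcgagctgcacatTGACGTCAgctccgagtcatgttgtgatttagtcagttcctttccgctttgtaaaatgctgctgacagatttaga
Searched on both strands in windows of 300 bases (250 before to 50 after each listed start), TGACGTCA was found for 371 of the 9953 tested genes that had a window (3.73%). Among the 25 largest rises it was found for 1 of 21 with a window, CREM, and on the cyclic AMP list for 3 of 16. Counted by window, it was in 2 of 52 for the largest rises (3.85%), 5 of 40 for the cyclic AMP list (12.5%) and 394 of 14388 for all genes (2.74%). A match describes the letters in the window and not a bound site.

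**Figure D3:**
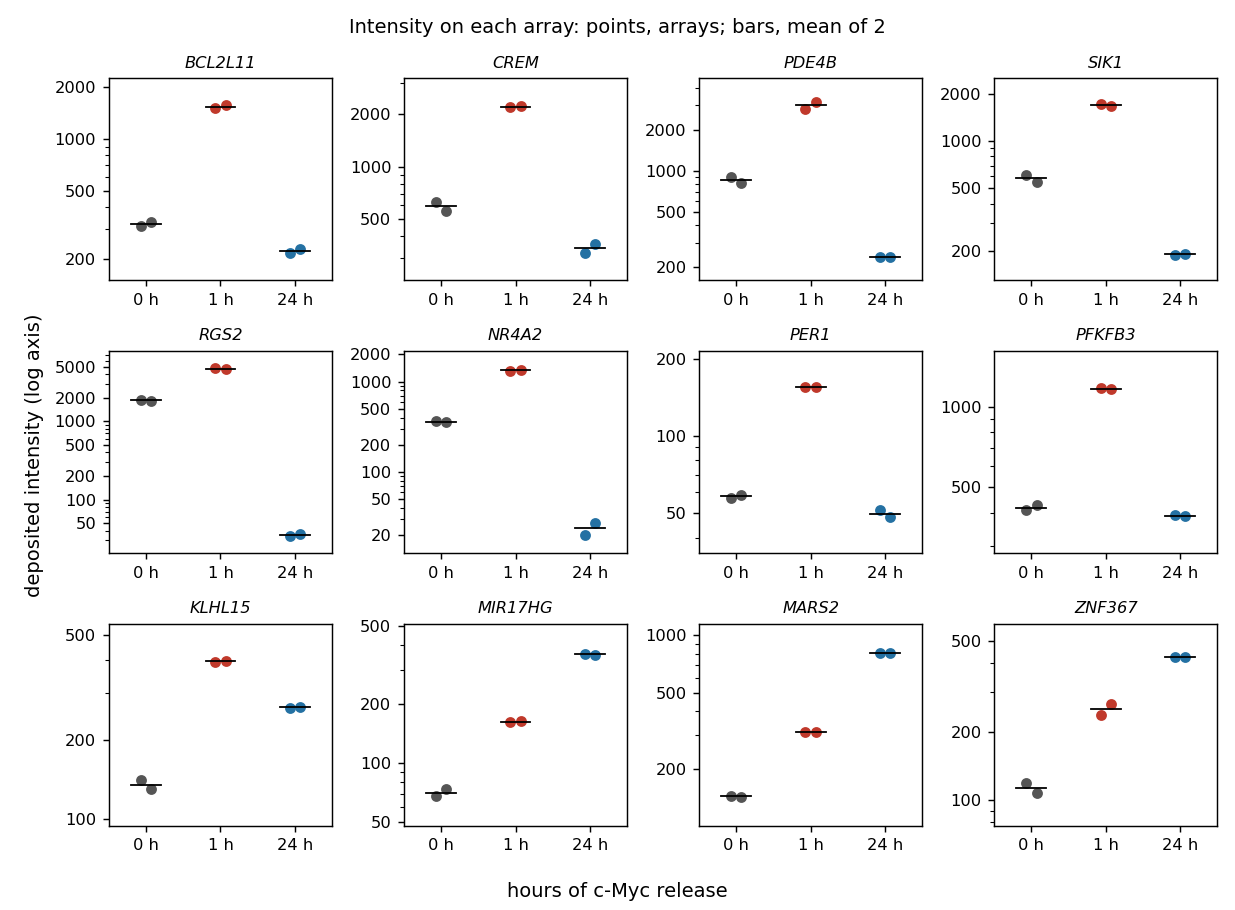
Deposited intensity (log axis) of 12 of the largest rises on each array at 0, 1 and 24 hours; points are arrays and bars the mean of 2. In every panel the 1-hour arrays lie above the 0-hour arrays; at 24 hours MIR17HG, MARS2 and ZNF367 lie higher still, and KLHL15 lies between.

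Immediate early transcription factors moved in both directions. Of 27 tested, 14 rose and 3 fell, and the list median was 0.38. The orphan nuclear receptors of the NR4A family were among the risen. NR4A2 read 364 and 359.8 at 0 hours, 1305 and 1354 at 1 hour and 20.4 and 27.4 at 24 hours, a 4.08-fold rise (2.03 ± 0.11, adjusted p = 1.03e-07). NR4A1 was brighter, with means of 2023 at 0 hours, 3664 at 1 hour and 80.0 at 24 hours, and rose by 1.01 ± 0.053. EGR3, a zinc finger factor of the early growth response family, read 154 and 163 at 0 hours, 342 and 333 at 1 hour and 28.4 and 33.7 at 24 hours. Its rise was 1.24 ± 0.10 (adjusted p = 1.73e-06). ATF3, a stress-induced bZIP factor, rose by 1.01 ± 0.076, from a mean intensity of 159 to 289.6. EGR1, of the same family as EGR3 and the usual reporter of MAP kinase activity, moved the other way. It read 2149.7 and 2039 at 0 hours, 1199.8 and 1178 at 1 hour and 43.5 and 49.3 at 24 hours, a difference of -0.67 ± 0.073 (adjusted p = 3.04e-05), with 4 of its 5 other probe sets of the same sign. FOS, a subunit of AP-1, fell by 0.38 ± 0.07, and KLF2, a factor of lymphocyte quiescence, by 0.14 ± 0.047. Both were named after their values had been seen. KLF2 also lay inside the bound used below for level genes with equal medians, and per cell it was at 0.020 and not called. EGR1 and FOS were bright at 0 hours, FOS at a mean of 4940.0, so both transcripts were present before the release. At 24 hours the means were 46.4 for EGR1, 38.2 for FOS, 80.0 for NR4A1 and 31.1 for EGR3. ATF3 was at 0.52 and EGR1 at -0.44 with the mean of all probe sets. EGR3 (0.23) and KLF2 (-0.061) lost the call with the mean of all probe sets. FOS was at -0.59 and KLF2 at -0.36 with quantile normalization. KLF2 (-0.14 to -0.10) lost the call without low-Myc replicate 1, mid-Myc replicate 1 or mid-Myc replicate 2.

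The MAP kinase feedback genes encode the phosphatases and Sprouty proteins that switch that pathway off. Of 12 tested, 6 rose and none fell, with a median of 0.42. DUSP4, a nuclear ERK phosphatase, read 159 and 159 at 0 hours, 324 and 307 at 1 hour and 102 and 100.1 at 24 hours and rose by 1.14 ± 0.073 (adjusted p = 2.67e-07). DUSP5, likewise specific for ERK in the nucleus, read 1725 and 1724 at 0 hours, 3053 and 3326 at 1 hour and 189 and 194 at 24 hours and rose by 1.04 ± 0.06 (adjusted p = 1.29e-07). SPRY2, an inhibitor upstream of RAF, rose by 0.95 ± 0.078, and DUSP10, which acts on JNK and p38, by 0.68 ± 0.092. MAP3K8, the kinase also called TPL2 that feeds into ERK, was one of the 25 largest rises at 1.23 ± 0.067, with intensities of 229 and 229 at 0 hours, 500.3 and 473 at 1 hour and 159.7 and 155 at 24 hours. DUSP10 was at or below 142 intensity at 0 hours, and against that level the measured rise was 1.13-fold.

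BCL2L11 showed the largest difference of any gene that passed the naming rule. It encodes BIM, a BH3-only protein that triggers apoptosis, and lies on chromosome 2. Its intensities were 309.5 and 329 at 0 hours, 1512 and 1560.1 at 1 hour and 216 and 231 at 24 hours, a 5.34-fold rise (2.42 ± 0.066, adjusted p = 2.22e-10). All 9 other probe sets of BCL2L11 shared the sign, with differences from 0.29 to 3.21. At 24 hours the difference from 0 hours was -0.38 with equal medians and 0.76 per cell. The rest of the BCL2 family moved less: of 16 tested members 3 rose and 1 fell. PMAIP1, which encodes NOXA, rose by 0.39 ± 0.043, and HRK, another BH3-only gene, was called higher with both groups below 142. MCL1, an antiapoptotic member, was called higher with equal medians (0.31 ± 0.04) but not with quantile normalization (adjusted p = 0.17). The fallen member, BIK, was at -0.24 and was named after its value had been seen. BCL2L11 was at 1.24 with the mean of all probe sets. PMAIP1 was at 0.15 and BIK at -0.41 with quantile normalization. PMAIP1 (0.36 to 0.43) lost the call without low-Myc replicate 1, mid-Myc replicate 1 or mid-Myc replicate 2. BIK (-0.20 to -0.19) lost the call without low-Myc replicate 1 or mid-Myc replicate 2.

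BCL2L11 and the clock gene PER1 also belong to a list of genes known to respond to glucocorticoids, of which 8 of 18 tested rose and none fell (2 were lower with quantile normalization). PER1, a repressor of the circadian clock, read 57.3 and 58.5 at 0 hours, 154 and 155 at 1 hour and 51.1 and 47.9 at 24 hours, and rose by 1.57 ± 0.10 (adjusted p = 2.17e-07). KLF9, a Krüppel-like repressor, rose by 1.13 ± 0.065, from a mean of 502 to 991. CXCR4, the chemokine receptor that keeps B cells near CXCL12, rose by 1.01 ± 0.075. The circadian genes as a list had 4 of 14 risen and none fallen; beside PER1 these were NFIL3 (0.97 ± 0.061), BHLHE40 (0.47 ± 0.068) and NR1D2, below 142 in both groups. Genes tied to FOXO factors, Krüppel-like factors and quiescence had 7 of 24 risen and 1 fallen. BCL6, the germinal centre repressor, was called higher with means of 48.9 at 0 hours and 99.9 at 1 hour, both below 142. KLF11 rose by 1.15 ± 0.069, though its 1 other probe set, at -0.13, had the opposite sign. CDKN1B, which encodes the cell cycle inhibitor p27, rose by 0.58 ± 0.071. YPEL5 rose by 0.54 ± 0.049. PER1 was at or below 142 intensity at 0 hours, and against that level the measured rise was 1.21-fold. PER1 was at 0.62, KLF9 at 0.40 and KLF11 at 0.77 with the mean of all probe sets. YPEL5 was at 0.30 with quantile normalization.

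TENT5C, a poly(A) polymerase that stabilises messages of secreted proteins and is best known in plasma cells, read 409 and 355 at 0 hours, 1423 and 1415 at 1 hour and 101 and 96.9 at 24 hours. It rose 4.13-fold (2.05 ± 0.075, adjusted p = 2.49e-09). Of the 18 tested regulators of mRNA decay and stability 5 rose and none fell (3 were lower with quantile normalization), the others by less: ZFP36L2, which targets AU-rich messages, by 0.53 ± 0.053, KHSRP by 0.40 ± 0.049 and TOB1 by 0.40 ± 0.045. KHSRP (0.11) lost the call with the mean of all probe sets. ZFP36L2 was at 0.33, KHSRP at 0.21 and TOB1 at 0.17 with quantile normalization. KHSRP (0.41) lost the call without mid-Myc replicate 1. TOB1 (0.39 to 0.40) lost the call without low-Myc replicate 1, low-Myc replicate 2 or mid-Myc replicate 1.

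Stress and fuel genes rose in several pathways. HERPUD1, which serves degradation of misfolded proteins at the endoplasmic reticulum, was bright at 1611 and 1502 at 0 hours, 3532 and 3514 at 1 hour and 1119 and 1169 at 24 hours and rose by 1.33 ± 0.052 (adjusted p = 3.07e-09). Of 22 tested genes of the unfolded protein and integrated stress responses 18 were called higher with equal medians, beside 25.7% of all genes. Under all 4 scalings 6 of them rose and none fell. Those named were DDIT4, an inhibitor of mTORC1 (0.95 ± 0.072), DNAJB9 (0.56 ± 0.056) and EDEM1 (0.54 ± 0.048). PFKFB3, which makes the activator of phosphofructokinase, read 408 and 426 at 0 hours, 1175 and 1162 at 1 hour and 393 and 388 at 24 hours and rose 3.11-fold (1.64 ± 0.057). ARRDC4, an arrestin-like protein that lowers glucose uptake, read 320.0 and 316 at 0 hours, 674 and 696 at 1 hour and 115 and 133 at 24 hours and rose by 1.26 ± 0.08. The glycolytic list held both, with 4 of 23 members risen and none fallen (2 were lower with quantile normalization). VEGFA, the angiogenic factor, led the hypoxia targets at 611 and 609 at 0 hours, 1369.7 and 1232 at 1 hour and 494 and 499.9 at 24 hours, a rise of 1.24 ± 0.059, with 7 of its 8 other probe sets of the same sign. Of the 13 tested hypoxia targets 5 rose and none fell, among them ANKRD37 (0.80 ± 0.075) and the histone demethylase KDM3A (0.52 ± 0.068). Of 23 tested p53 targets 5 rose and none fell (1 was lower with quantile normalization), with PPM1D at 0.82 ± 0.086 and PLK3 below 142 in both groups. HERPUD1 was at 0.86, PFKFB3 at 0.52 and VEGFA at 0.61 with the mean of all probe sets. ANKRD37 (0.42) lost the call with the mean of all probe sets. DNAJB9 was at 0.37 and EDEM1 at 0.29 with quantile normalization.

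The remaining genes among the 25 largest rises belong to no single pathway. KLHL15, an adaptor of a cullin ubiquitin ligase, read 140.4 and 129.8 at 0 hours, 393 and 399 at 1 hour and 264 and 267 at 24 hours and rose by 1.70 ± 0.072. LDLRAD4, an inhibitor of TGF-beta signalling, rose by 1.64 ± 0.074 from a mean of 122 to 343, and TGIF1, a corepressor of the same pathway, by 1.39 ± 0.081 from 109 to 258. BACH1, a repressor of haem oxygenase, read 559 and 494 at 0 hours, 1188 and 1252 at 1 hour and 308 and 265 at 24 hours and rose by 1.36 ± 0.081. GNA13, the G protein alpha subunit that confines germinal centre B cells, read 1084 and 976 at 0 hours, 2337 and 2279 at 1 hour and 896 and 878 at 24 hours and rose by 1.32 ± 0.057. METRNL (1.49 ± 0.08), ZNF441 (1.39 ± 0.10) and KBTBD8 (2.39-fold higher) had 0-hour means of 90.4, 95.4 and 84.4. Among the 25 rises, 17 genes had other probe sets, and 46 of those 50 probe sets had the same sign. For HERPUD1 and LDLRAD4 it was 2 of 3 each, with the lowest at -0.49 and -0.053. KLHL15, LDLRAD4, TGIF1, METRNL, ZNF441 and KBTBD8 were at or below 142 intensity at 0 hours. Against that level the measured rises were 3.09-fold, 2.68-fold, 2.01-fold, 1.79-fold, 1.76-fold and 1.41-fold in that order. LDLRAD4 was at 0.66 and BACH1 at 0.62 with the mean of all probe sets.

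Of the largest rises, 3 with a still higher level at 24 hours are described here, picked after their values had been seen. MIR17HG, on chromosome 13, is the host transcript of the miR-17-92 cluster of microRNAs and a known c-Myc target. It read 67.9 and 74.1 at 0 hours, 162 and 164 at 1 hour and 362 and 357 at 24 hours, a difference at 1 hour of 1.35 ± 0.077 (adjusted p = 1.29e-07) with both other probe sets of the same sign. MARS2, the mitochondrial methionyl-tRNA synthetase, read 146 and 144 at 0 hours, 313 and 313 at 1 hour and 806 and 803 at 24 hours and rose by 1.26 ± 0.064 (adjusted p = 3.98e-08). ZNF367, a zinc finger gene, read 119 and 107 at 0 hours, 237 and 265 at 1 hour and 426 and 428 at 24 hours and rose by 1.29 ± 0.084, though its 1 other probe set had the opposite sign. On the equal-median scale the 24-hour differences from the same low-Myc arrays were 2.48, 2.61 and 2.05. For CREM, PDE4B and RGS2 they were -0.66, -1.72 and -5.59. Both comparisons share their low-Myc arrays, so the values are set side by side only. MIR17HG and ZNF367 were at or below 142 intensity at 0 hours. Against that level the measured rises were 1.27-fold and 1.95-fold in that order. ZNF367 (0.24) lost the call with the mean of all probe sets.

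The array reads the host transcript of MIR17HG and not the mature microRNAs. Those are shown because they are what the cluster is known for, in the form of the RefSeq mature sequences of the cluster, all on the plus strand of chromosome 13 (GRCh38.p14), with the seed, bases 2 to 8, in capitals.
miR-17-5p (chr13:91350618-91350640): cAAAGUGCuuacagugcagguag
miR-20a-5p (chr13:91351072-91351094): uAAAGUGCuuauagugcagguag
miR-18a-5p (chr13:91350756-91350778): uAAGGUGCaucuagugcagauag
miR-19a-3p (chr13:91350939-91350961): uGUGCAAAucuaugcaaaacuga
miR-19b-3p (chr13:91351245-91351267): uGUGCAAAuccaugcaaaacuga
miR-92a-3p (chr13:91351361-91351382): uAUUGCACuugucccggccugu
By seed they fall into 4 groups: miR-17-5p with miR-20a-5p, miR-18a-5p alone, miR-19a-3p with miR-19b-3p, and miR-92a-3p alone.

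Of the growth programmes that c-Myc is known to drive, ribosome biogenesis had the largest share of risen members among the growth lists given here. These genes encode the factors that process ribosomal RNA and assemble the subunits in the nucleolus. Of 58 tested, 20 rose under all 4 relative scalings and 1 fell, beside 7.37% and 2.95% of all genes, and the list median was 0.22 with equal medians and 0.094 with quantile normalization. Without 1 of the 4 arrays compared the count of risen members was 10 (without low-Myc replicate 1), 11 (low-Myc replicate 2), 9 (mid-Myc replicate 1) or 10 (mid-Myc replicate 2). PNO1, needed for the small subunit, read 214 and 172 at 0 hours, 384 and 342 at 1 hour and 943 and 889 at 24 hours and rose by 1.07 ± 0.093 (adjusted p = 5.29e-06). DDX21, a nucleolar RNA helicase, read 1551 and 1511 at 0 hours, 2274 and 2281 at 1 hour and 5225 and 5379.9 at 24 hours and rose by 0.72 ± 0.044 (adjusted p = 1.78e-07). Both lay higher again at 24 hours. NOP16 rose by 0.69 ± 0.071 from a mean of 225 to 327, and RRS1, which brings the 5S particle to the large subunit, by 0.66 ± 0.07 from 174 to 248. The fallen member, DDX52, was at -0.25 ± 0.071 and was named after its value had been seen. DDX52 was at -0.38 with quantile normalization. DDX52 (-0.26 to -0.21) lost the call without low-Myc replicate 2, mid-Myc replicate 1 or mid-Myc replicate 2.

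Promoters of MARS2 and of the ribosome biogenesis genes DDX21 and PNO1 are shown because each holds the E-box CACGTG, in capitals, within the stretch from 100 bases before the listed start to 25 after it. Positions are GRCh38.p14 from RefSeq, and each sequence is written along the gene's own strand.
MARS2 (chr2:197705269-197705393, plus strand): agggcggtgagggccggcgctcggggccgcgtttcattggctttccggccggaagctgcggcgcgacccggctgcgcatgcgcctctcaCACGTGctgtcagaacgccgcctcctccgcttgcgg
DDX21 (chr10:68956547-68956671, plus strand): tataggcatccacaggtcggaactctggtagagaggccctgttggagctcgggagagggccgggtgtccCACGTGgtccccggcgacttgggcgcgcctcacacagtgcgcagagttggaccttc
PNO1 (chr2:68157788-68157912, plus strand): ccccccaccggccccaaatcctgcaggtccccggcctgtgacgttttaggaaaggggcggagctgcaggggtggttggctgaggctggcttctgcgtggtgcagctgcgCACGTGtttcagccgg
The E-box begins 11 and 31 bases before the start in MARS2 and DDX21, and 9 bases after it in PNO1. In the 300-base windows the hexamer was found for 22 of the 49 ribosome biogenesis genes with a window (44.9%), beside 1246 of 9953 tested genes (12.52%). Within the list it was found for 9 of 18 members that rose and for 13 of the 31 others. It was found for 5 of 21 of the largest rises and for 0 of 12 of the largest falls with a window. Genes can have several windows, and counted by window the hexamer was in 22 of 54 for ribosome biogenesis (40.74%), 5 of 52 for the largest rises (9.62%) and 1337 of 14388 for all genes (9.29%).

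Other growth lists moved in part. Of 33 tested genes of RNA polymerases I and III 6 rose and 2 fell; POLR1C, a subunit shared by both enzymes, read 132 and 111 at 0 hours, 202 and 195 at 1 hour and 583 and 619 at 24 hours and rose by 0.87 ± 0.086, POLR3F by 0.71 ± 0.08 and TAF1D by 0.54 ± 0.077. The fallen members, TAF1B and POLR1G, were below 142 in both groups and were named after their values had been seen. Of 40 tested translation factors 8 rose and none fell under all 4 scalings, but 8 were called lower with quantile normalization and 7 with cyclic loess. The rises were led by EIF1AX (0.74 ± 0.061), the release factor ETF1 (0.64 ± 0.078) and EIF5 (0.59 ± 0.047). Of 18 tested amino acid transporters and serine synthesis genes 5 rose and none fell. SLC7A5, the leucine transporter, read 96.1 and 85.0 at 0 hours, 168 and 176 at 1 hour and 423 and 422 at 24 hours and rose by 1.08 ± 0.082 (adjusted p = 1.49e-06), and its partner SLC3A2 rose by 0.45 ± 0.071. Among 31 tested classic c-Myc targets 5 rose and none fell (3 were lower with quantile normalization). ODC1, the first enzyme of polyamine synthesis, read 818 and 768 at 0 hours, 1065 and 1109 at 1 hour and 3229 and 3204 at 24 hours and rose by 0.61 ± 0.054 (adjusted p = 6.1e-06), NOLC1 by 0.57 ± 0.044 and EIF4A1 by 0.45 ± 0.036. In the MYC and MAX network 3 of 15 rose, and all 3 encode partners of MAX that oppose c-Myc: MXD1, below 142 in both groups, MNT (0.64 ± 0.078) and MXI1 (0.48 ± 0.069). The 1 other probe set of MNT, at -0.18, had the opposite sign, and 3 of the 4 others of MXI1 had the same sign. CLK1, a kinase of splicing factors, rose by 0.85 ± 0.10 and SRSF6 by 0.55 ± 0.055 on a list of which 6 of 34 rose and none fell (7 were lower with quantile normalization). POLR2D, a subunit of RNA polymerase II, rose by 0.88 ± 0.12, on a list with 3 of 34 risen, near the 7.37% of all genes. POLR1C, SLC7A5, MNT and CLK1 were at or below 142 intensity at 0 hours. Against that level the measured rises were 1.55-fold, 1.34-fold, 1.23-fold and 1.49-fold in that order. SLC7A5 was at 0.60 with the mean of all probe sets. MNT (0.23), MXI1 (0.22) and SRSF6 (0.35) lost the call with the mean of all probe sets. EIF5 was at 0.38, NOLC1 at 0.38, EIF4A1 at 0.20, MXI1 at 0.32 and SRSF6 at 0.35 with quantile normalization. TAF1D (0.48) lost the call without mid-Myc replicate 1. MXI1 (0.39 to 0.49) lost the call without low-Myc replicate 1, mid-Myc replicate 1 or mid-Myc replicate 2.

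**Figure D4:**
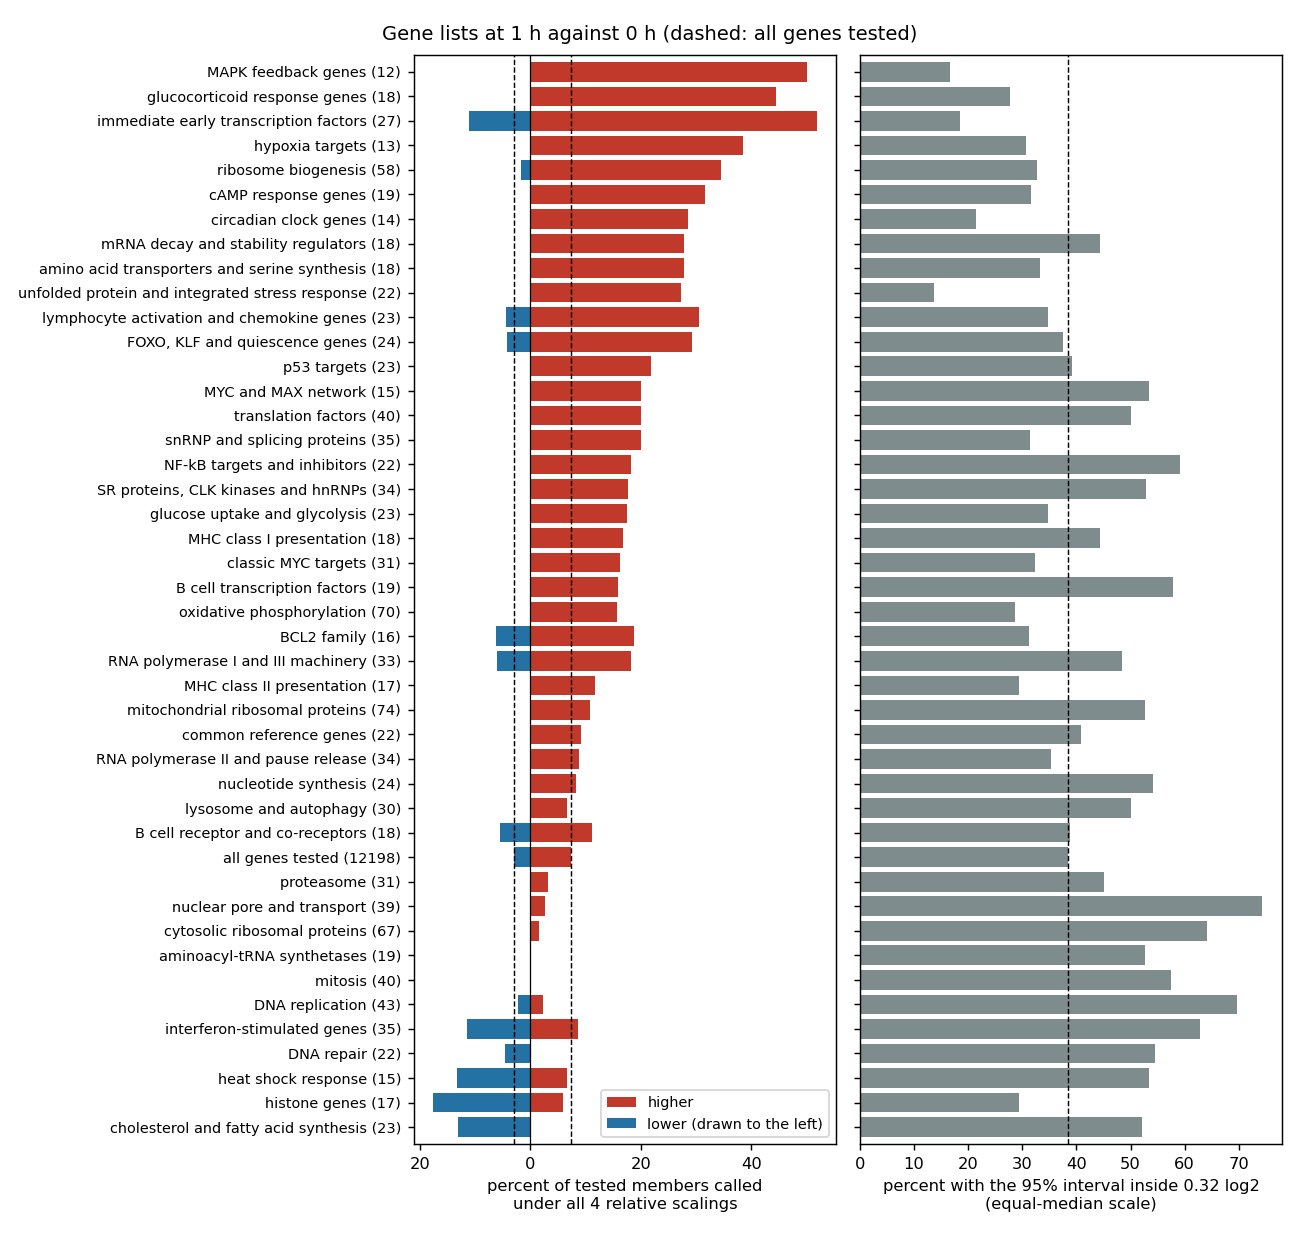
For each gene list (tested members in brackets) the left panel shows the percent of members called higher (red) or lower (blue, drawn leftwards) under all 4 relative scalings, and the right panel the percent whose 95% interval lies inside ±0.32 (log2) on the equal-median scale; dashed lines mark all genes tested, at 7.37%, 2.95% and 38.5%. Early response lists and ribosome biogenesis are near the top of the left panel, and nuclear pore and DNA replication genes lead the right one.

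For several classes the call rested on the scaling. Of 67 tested cytosolic ribosomal protein genes, 65 were called higher with equal medians (median 0.23), 67 per cell (median 0.25) and 1 with quantile normalization (median 0.014). RPL32 and RPL37A, the brightest, differed by 0.19 ± 0.031 and 0.20 ± 0.028 with equal medians and by 0.0068 and 0.031 after quantile normalization. The brightest decile of all genes had a median of 0.21 with equal medians. In that decile 838 of 1220 genes were called higher with equal medians, beside 25.7% of all genes. In deciles 9 and 8, with median intensities of 748 and 460, it was 595 of 1220 and 465 of 1220. Within the bound used below for level genes lay 43 of the 67, with equal medians and under all 4 scalings alike, so many of these genes were both called higher and bounded as small. Oxidative phosphorylation had 62 of 70 called higher with equal medians (median 0.25) and 11 risen under all 4 scalings, with ATP5MF at 0.67 ± 0.079 and COX6B1 at 0.43 ± 0.047. Mitochondrial ribosomal proteins had 36 of 74 called higher and 8 risen, with MRPL54 at 0.56 ± 0.054. Of 31 proteasome genes 21 were called higher and 1 rose under all 4, POMP, the assembly chaperone, at 0.35 ± 0.044. Of 19 listed aminoacyl-tRNA synthetases 8 were called higher and none rose under all 4 by limma. At an unadjusted p under 0.05 there were 8 higher, WARS1 being at 0.31 ± 0.062. This list does not hold MARS2, the mitochondrial synthetase described above, which rose under all 4. Per cell, nearly all members of these lists were called higher, beside 62.7% of all genes: 70 of 70 for oxidative phosphorylation, 70 of 74, 30 of 31 and 19 of 19. ATP5MF was at 0.39 with the mean of all probe sets. COX6B1 was at 0.19, MRPL54 at 0.37 and POMP at 0.12 with quantile normalization. ATP5MF (0.67 to 0.68) lost the call without mid-Myc replicate 1 or mid-Myc replicate 2. COX6B1 (0.37 to 0.46) lost the call without low-Myc replicate 2, mid-Myc replicate 1 or mid-Myc replicate 2. POMP (0.32 to 0.38) lost the call without any 1 of the 4 arrays.

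To say that a gene stayed level, its 95% interval had to lie between -0.32 and 0.32 (log2) on the equal-median scale, which held for 4699 genes (38.5%), and for 3251 (26.7%) under all 4 relative scalings. The equal-median count was 2933 without low-Myc replicate 1 and 2925 without mid-Myc replicate 1. Of the 4699 level genes, 391 were also called higher or lower with equal medians. The scale is anchored on the median human probe set, which read between 44.5 and 50.2 intensity on the arrays, below 142. A level gene kept its place within the bound against that anchor, which is not the middle of the tested genes. With equal medians the median of all genes was 0.0915, of the brightest decile 0.21 and of the background probe sets 0.12. As deposited, the background probe sets differed by a mean of 0.0064. Every equal-median value is set against that same anchor. Per cell the same bound held 1432 genes. The level share with equal medians depended on brightness. It was 11 of 1220 genes in the dimmest decile, 629 of 1219 in decile 7 (median intensity 308) and 666 of 1220 in decile 8 (460). The nuclear pore list had a median intensity of 457, and the lists of DNA replication and DNA repair had 295 and 281. Nuclear pore and transport genes had the largest level share of the lists with equal medians, 29 of 39. Under all 4 scalings it was 21 of 39, below the 43 of 67 of the ribosomal proteins. The list median was -0.094 with quantile normalization, which called 7 members lower and 1 higher. Under all 4 scalings 1 rose, NUP210 (0.38 ± 0.07). The brightest members of the list were RAN, the GTPase of nuclear transport, at 3896 and 3796 at 0 hours, 4034 and 3944 at 1 hour and 7909 and 7784 at 24 hours, and KPNB1, importin beta, at 3317 and 3507 at 0 hours, 3477 and 3419 at 1 hour and 4104 and 4299 at 24 hours. Their differences were 0.20 (95% interval 0.13 to 0.28) and 0.17 (0.072 to 0.26), and -0.02 and -0.056 with quantile normalization. With the mean of its probe sets RAN was at 0.35 and its interval reached past the bound. NUP210 (0.20) lost the call with the mean of all probe sets. NUP210 was at 0.24 with quantile normalization. NUP210 (0.33 to 0.39) lost the call without low-Myc replicate 2, mid-Myc replicate 1 or mid-Myc replicate 2.

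DNA replication genes were level in 30 of 43 (23 under all 4 scalings), with a list median of 0.033 beside 0.092 for all genes. With quantile normalization the median was -0.077 beside -0.022, with 8 members called lower and 1 higher, and cyclic loess called 7 lower and 2 higher. PCNA, the sliding clamp, read 1879.6 and 1823 at 0 hours, 1908 and 1851 at 1 hour and 4906 and 4913 at 24 hours, a difference of 0.17 (95% interval 0.081 to 0.26), or -0.061 with quantile normalization. MCM7, of the replicative helicase, read 1331 and 1289.7 at 0 hours, 1469.8 and 1459 at 1 hour and 3989.6 and 3997 at 24 hours and lay at 0.31 ± 0.045 with equal medians and 0.11 with quantile normalization, and was not called under all 4 scalings. RPA3, a subunit of the single-strand binding complex, rose by 0.52 ± 0.09, and GINS1, named after its value had been seen, was at -0.21 ± 0.062. The count of risen members was 0 without low-Myc replicate 2, mid-Myc replicate 1 or mid-Myc replicate 2. At 24 hours PCNA, MCM7 and CDC6 read means of 4909, 3993 and 1259, beside 1879, 1464 and 273 at 1 hour. Mitosis genes had none of 40 risen or fallen under all 4 scalings by limma. With equal medians 6 were called higher, beside 25.7% of all genes, and 23 were level. At an unadjusted p under 0.05, 12 were higher and 3 lower. BUB3, of the spindle checkpoint, differed by 0.16 (95% interval 0.0077 to 0.31) and SMC4, of condensin, by 0.21 (0.087 to 0.33), the second reaching past the bound. BUB3 was at 0.28 without low-Myc replicate 1 and 0.038 without low-Myc replicate 2, past the bound in its interval without low-Myc replicate 1 or mid-Myc replicate 1, and at -0.045 with quantile normalization. Of 22 DNA repair genes 12 were level, none rose by limma (4 were higher at an unadjusted p under 0.05) and 1 fell, RAD50 at -0.20 ± 0.066. XRCC5, which encodes Ku80, differed by 0.045 (95% interval -0.063 to 0.15). GINS1 was at -0.43 with the mean of all probe sets. RAD50 (-0.10) lost the call with the mean of all probe sets. GINS1 was at -0.34 and RAD50 at -0.34 with quantile normalization. RPA3 (0.38 to 0.55) lost the call without low-Myc replicate 2, mid-Myc replicate 1 or mid-Myc replicate 2. GINS1 (-0.23 to -0.18) and RAD50 (-0.24 to -0.17) lost the call without any 1 of the 4 arrays.

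**Figure D5:**
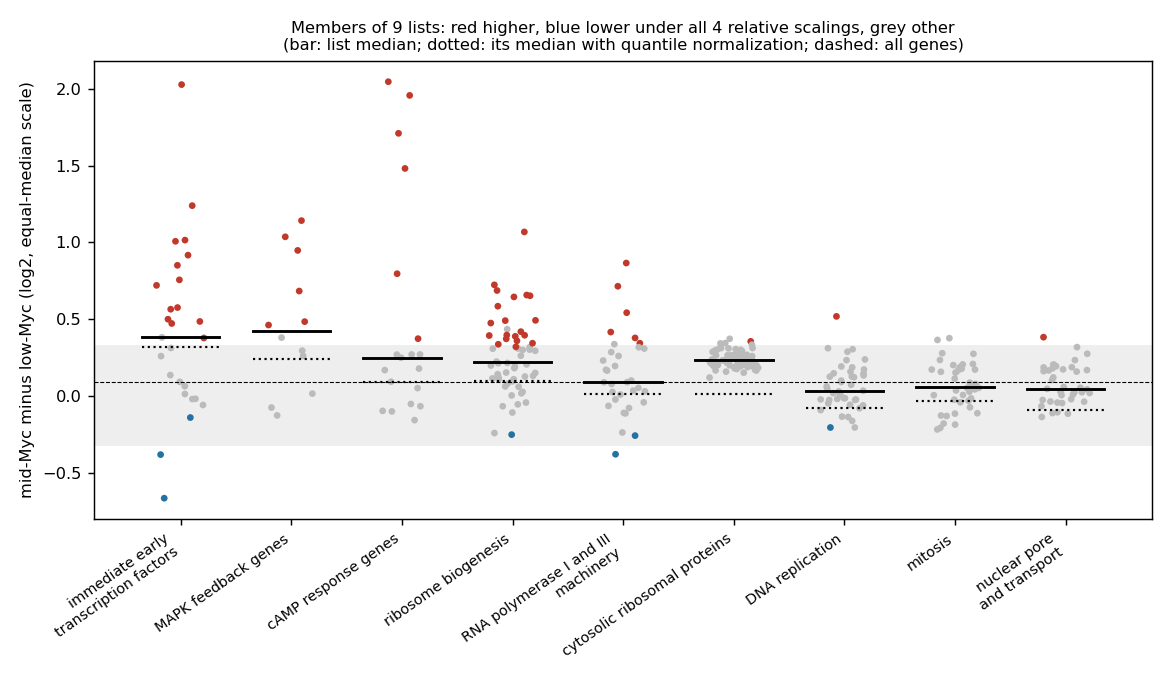
Each point is a tested gene of one of 9 lists at its log2 difference, mid-Myc minus low-Myc, on the equal-median scale; bars mark list medians, dotted bars the medians with quantile normalization, the dashed line all genes and the grey band ±0.32. Signalling and ribosome biogenesis lists reach beyond the band, while DNA replication, mitosis and nuclear pore genes lie mostly inside it.

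The falls were smaller than the rises. HPX, the haem carrier haemopexin, had the largest measured fall of the 15, at 290.2 and 223 at 0 hours, 101 and 125 at 1 hour and 109.8 and 129.5 at 24 hours (-1.02 ± 0.14, adjusted p = 0.000139). ZNF429, a zinc finger gene, read 345 and 326 at 0 hours, 161 and 192 at 1 hour and 155 and 152 at 24 hours (-0.78 ± 0.09, adjusted p = 4.81e-05). TNFAIP8L2, a brake on lymphocyte activation, read 215 and 219.7 at 0 hours, 126 and 118 at 1 hour and 189 and 197 at 24 hours (-0.68 ± 0.075). TMEM156 was at -0.67 ± 0.082, POLK, a translesion polymerase, at -0.66 ± 0.086, ZNF860 at -0.62 ± 0.082 and TRMT1L at -0.61 ± 0.09. CCR2, a chemokine receptor, read 891 and 857 at 0 hours, 542 and 504 at 1 hour and 492 and 522 at 24 hours (-0.59 ± 0.062, adjusted p = 2.31e-05). TLR10, a Toll-like receptor of B cells, read 2163 and 2090.3 at 0 hours, 1229.6 and 1369 at 1 hour and 722 and 744 at 24 hours (-0.56 ± 0.063, adjusted p = 3.56e-05), though its 1 other probe set had the opposite sign. ESCO2, a cohesin acetyltransferase, read 153 and 151 at 0 hours, 87.2 and 92.8 at 1 hour and 428 and 403 at 24 hours (-0.60 ± 0.077); at 24 hours it lay above the 0-hour level, and its 1 other probe set, at 0.034, had the opposite sign. GTF2H3, of the general factor TFIIH, was at -0.70 ± 0.14. HPX, TNFAIP8L2, ZNF860, TRMT1L and GTF2H3 were at or below 142 intensity at 1 hour. Against that level the measured falls were 1.61-fold, 1.38-fold, 1.36-fold, 1.31-fold and 1.07-fold in that order. ESCO2 was at or below 142 intensity at 1 hour, and its fall has no bound against that level. TLR10 was at -0.25, ESCO2 at -0.28 and GTF2H3 at -0.41 with the mean of all probe sets. HPX (-0.37) lost the call with the mean of all probe sets. GTF2H3 (-0.57) lost the call without low-Myc replicate 1. GTF2H3 was at -0.46 without mid-Myc replicate 2.

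Of the 15 falls 10 had other probe sets, and 17 of those 25 probe sets had the same sign. DIDO1 (-0.75 ± 0.072) had 2 of 5 and SLFN5 (-0.65 ± 0.08) 1 of 3. With the mean of all probe sets of a gene SLFN5 changed sign per cell, to 0.121. On the per-cell scale the values of HPX, ZNF429, EGR1 and TLR10 were -0.79, -0.54, -0.44 and -0.37, so these 4 were lower per cell as well. DIDO1 was at or below 142 intensity at 1 hour, and against that level the measured fall was 1.66-fold. DIDO1 (0.023) and SLFN5 (-0.10) lost the call with the mean of all probe sets.

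Of 35 interferon-stimulated genes 3 rose and 4 fell, beside 7.37% and 2.95% of all genes, so the risen share was near that of all genes. With equal medians 22 were level (10 under all 4 scalings). Equal medians alone called 14 higher and 4 lower, beside 25.7% and 3.39% of all genes. Other single scalings called 9 and 12 with the tested genes centred, 4 and 14 by cyclic loess and 3 and 15 with quantile normalization. With quantile normalization the list median was -0.085. IFIT3, an antiviral effector, read 1419 and 1415 at 0 hours, 892 and 819.9 at 1 hour and 487 and 488 at 24 hours, a fall of 0.58 ± 0.055 (adjusted p = 1.06e-05). OASL (0.50 ± 0.068), IFI6 (0.42 ± 0.054) and IFI27 (0.42 ± 0.054) rose; IFIH1 (-0.35), RSAD2 (-0.30) and XAF1 (-0.16) fell and were named after their values had been seen. Of 23 tested genes of cholesterol and fatty acid synthesis none rose by limma (5 were higher at an unadjusted p under 0.05) and 3 fell: the elongase ELOVL6, below 142 in both groups, the sterol oxidase MSMO1 (-0.40 ± 0.06) and MVK, mevalonate kinase (-0.25 ± 0.076), the last named after its value had been seen. Of 17 tested histone genes 1 rose, H1-10 (0.45 ± 0.063), and 3 fell, H2BC21 (-0.45 ± 0.11) and, below 142 in both groups, H2AC15 and H2BC8; near-identical histone genes can share probe sets. Among 15 heat shock genes the chaperone partner BAG3 rose (0.68 ± 0.10), and HSPH1 (-0.31 ± 0.051) and DNAJA1 (-0.16), the second named after its value had been seen, fell. DNAJA1 also lay inside the bound for level genes with equal medians, and per cell it was at -0.067 and not called. The risen shares of the histone and heat shock lists, 1 of 17 and 1 of 15, were near the 7.37% of all genes. BAG3 was at or below 142 intensity at 0 hours, and against that level the measured rise was 1.28-fold. MVK was at or below 142 intensity at 1 hour, and against that level the measured fall was 1.17-fold. MVK (-0.16), H1-10 (0.32) and H2BC21 (0.10) lost the call with the mean of all probe sets. IFI6 was at 0.22, IFI27 at 0.19, IFIH1 at -0.55, XAF1 at -0.38, H1-10 at 0.24, HSPH1 at -0.54 and DNAJA1 at -0.38 with quantile normalization. IFI6 (0.37 to 0.42) and H1-10 (0.37 to 0.38) lost the call without low-Myc replicate 2 or mid-Myc replicate 1. IFI27 (0.38 to 0.43), MVK (-0.27 to -0.21) and H2BC21 (-0.52 to -0.38) lost the call without low-Myc replicate 2, mid-Myc replicate 1 or mid-Myc replicate 2. XAF1 (-0.18 to -0.10) lost the call without low-Myc replicate 1, mid-Myc replicate 1 or mid-Myc replicate 2. DNAJA1 (-0.17 to -0.10) lost the call without low-Myc replicate 1, low-Myc replicate 2 or mid-Myc replicate 1.

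Lists of the B cell programme ranged from 2 of 18 risen members, for the B cell receptor, to 7 of 23, for lymphocyte activation, beside 7.37% of all genes. Among bright genes the risen share was larger, at 117 of 1219 in decile 7 of brightness and 142 of 1220 in the brightest. The B cell receptor and MHC class II lists were bright, with median intensities of 1480 and 1514. The lists also differed in how many members were level. Level members were 7 of 18 for the B cell receptor and its co-receptors, 8 of 23 for lymphocyte activation, 8 of 18 for MHC class I and 5 of 17 for MHC class II, beside 38.5% of all genes. Among bright genes the level share was larger, at 629 of 1219 in decile 7 of brightness and 632 of 1220 in the brightest. Of 19 tested B cell transcription factors 11 were level (11 under all 4 scalings), 3 rose and none fell (3 were lower with quantile normalization). The risen genes were IRF4, a regulator of activated B and plasma cells (0.75 ± 0.059; 583 and 636 at 0 hours, 929 and 912 at 1 hour and 521 and 507 at 24 hours), and BCL6 and PRDM1, which encodes BLIMP-1, both below 142 in both groups; PRDM1 had means of 101 at 0 hours, 139 at 1 hour and 94.9 at 24 hours. POU2AF1 and ETS1, the brightest, differed by 0.16 (95% interval 0.07 to 0.24) and 0.08 (-0.013 to 0.17), and by -0.08 and -0.15 with quantile normalization. Of 18 genes of the B cell receptor and its co-receptors LYN, a Src-family kinase (0.40 ± 0.045), and CD37 (0.35 ± 0.059) rose, and CD24, a surface glycoprotein, fell (-0.32 ± 0.049) and was named after its value had been seen. Lymphocyte activation and chemokine genes had 7 of 23 risen and 1 fallen, with GPR183, a receptor that positions B cells, at 1973 and 1919 at 0 hours, 3337 and 3533 at 1 hour and 349 and 324 at 24 hours (0.97 ± 0.056) and CD83, an activation marker, at 697 and 683 at 0 hours, 1201 and 1234 at 1 hour and 396 and 411 at 24 hours (0.97 ± 0.058). Of 22 NF-kB targets and inhibitors 4 rose, none fell (2 were lower with quantile normalization) and 13 were level. The risen genes beside CD83 were CCL3 (0.59 ± 0.087), the inhibitor NFKBIA (0.46 ± 0.041) and TNIP2 (0.42 ± 0.073). MHC class I presentation had 3 of 18 risen, HLA-B (0.38 ± 0.034), HLA-C (0.38 ± 0.043) and TAPBP (0.34 ± 0.049), and class II 2 of 17, HLA-DRB1 (0.41 ± 0.038) and CD74 (0.35 ± 0.039). LYN (0.33), TAPBP (0.12) and CD74 (0.31) lost the call with the mean of all probe sets. LYN was at 0.18, CD37 at 0.16, CD24 at -0.56, NFKBIA at 0.23, TNIP2 at 0.28, HLA-B at 0.13, HLA-C at 0.14, TAPBP at 0.14, HLA-DRB1 at 0.16 and CD74 at 0.11 with quantile normalization. LYN (0.37 to 0.42) and CCL3 (0.53 to 0.55) lost the call without low-Myc replicate 2 or mid-Myc replicate 1. CD37 (0.31 to 0.38), HLA-B (0.37 to 0.40), TAPBP (0.32 to 0.36) and CD74 (0.32 to 0.38) lost the call without any 1 of the 4 arrays. TNIP2 (0.36 to 0.44) and HLA-C (0.36 to 0.40) lost the call without low-Myc replicate 1, mid-Myc replicate 1 or mid-Myc replicate 2. HLA-DRB1 (0.38) lost the call without low-Myc replicate 2.

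Markers of B cells were present and those of T and NK cells dim, while some monocyte and most plasma cell markers were above 142 intensity. The median plasma cell marker read 314 at 0 hours and 278 at 1 hour. The 9 B cell markers on the array summed to 41168 to 41363 intensity in the low-Myc arrays and 42287 to 43683 in the mid-Myc arrays. None of the 9 tested T and NK cell markers was called by limma, and 0 had an unadjusted p under 0.05, while the 15 on the array summed to 700 to 725 and 615 to 656, with a median member at 44.3 and 42.6, close to the floor of brightness of 33.8. The 11 monocyte markers summed to 2783 to 2831 and 2643 to 2720, most of it from LYZ and MS4A7, and the 8 plasma cell markers to 6981 to 7125 and 7297 to 7459. Among plasma cell markers PRDM1 rose and TNFRSF17, named after its value had been seen, fell (-0.20 ± 0.065). The 9 erythroid and stromal markers summed to 776 to 805 and 732 to 760. The table lists no detection calls, and whether other cells or free RNA took part in any rise was not tested. TNFRSF17 was at -0.36 with quantile normalization. TNFRSF17 (-0.21 to -0.20) lost the call without any 1 of the 4 arrays.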

How the data were processed

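RNA of P493-6 cells was read on 6 one-colour Affymetrix arrays, 2 for each group. The deposited values are linear probe set intensities that the authors summarised by MAS5, per the submitters' processing notes, though the sources used here give neither its version nor its scaling target. Of 49495 probe sets 49293 were human, 100 ERCC and 23 background. Of the human ones 45278 carried 1 symbol, 1333 several and 2682 none listed, and 45208 were matched to the gene table through Entrez identifiers.

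Each gene was represented by its brightest probe set and tested if its geometric mean exceeded 33.8 intensity, the 40th percentile over human probe sets. Log2 values were placed on the equal-median scale and, after subtracting a robust loess fit to each array's ERCC probe sets (degree 1, span 0.7), on the per-cell scale. All 6 arrays entered 1 limma fit (version 3.58.1, R 4.3.3) with a variance trend, two-sided, at 0.05. The fit had 12.9 degrees of freedom with equal medians and 9.24 per cell. The steps were checked on simulated data with independent noise and no shift shared across an array. That check therefore cannot test how the calls depend on the scaling.

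Named genes were MYC, then the 25 largest rises and 15 largest falls among genes called under all 4 relative scalings whose arrays did not overlap and whose brighter group was above the 90th percentile of the background probe sets (142 intensity). Up to 4 called members per list with the largest change followed, and the 2 brightest of level lists; exceptions are marked. The members and the lists were chosen with earlier results of these data known. Promoter and microRNA sequences are RefSeq's (GRCh38.p14). Alternatives covered the filter, probe set choice, a pseudocount of 16, the variance trend, the groups fitted, the replicate number as a block, each array left out and other scalings.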

Additional observations from a re-analysis of the deposited data

Results flagged for a closer look

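Probe sets that carry several gene symbols or none listed here were left out of the comparison, and they were tested apart, in a fit over all human probe sets that was chosen after the data had been seen. Of 2202 such probe sets above the filter, 503 were called higher and 83 lower on the equal-median scale. Of these, 12 were called higher by 2-fold or more with arrays that did not overlap, and 9 of the 12 were also above 142 intensity, the 90th percentile of the background probe sets, at 1 hour. The log2 differences of the 9 were 1.51, 1.38, 1.35, 1.34, 1.29, 1.12, 1.06, 1.05 and 1.03. The first of them read 201 and 231 at 0 hours, 543 and 561 at 1 hour and 25.8 and 21.5 at 24 hours. The genes behind these signals are not named here.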

How the results depend on the processing

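Leaving out each array in turn gave ranges of 1895 to 3219 higher and 200 to 457 lower genes with equal medians, 6639 to 7533 and 52 to 89 per cell, 427 to 917 and 155 to 371 under all 4 relative scalings, and 2925 to 4839 level genes; where a group kept 1 array, that array was assumed to vary like the others. The risen members ranged from 11 to 14 for immediate early factors, 9 to 17 for ribosome biogenesis and 0 to 1 for DNA replication. Equal-median calls became 955 higher and 1195 lower with quantile normalization, 1053 and 1034 with cyclic loess, 1131 and 1489 as deposited and 1527 and 1077 centred on the tested genes. With no variance trend 35 of the 134 called genes named in the text lost the call, 1 of them among the 40 largest rises and falls, and 507 genes rose under all 4 scalings, with 9 for ribosome biogenesis and 0 for DNA replication. The last count was 2 with a 60th percentile filter and 2 with the mean of all probe sets. A level bound of 1.5-fold held 10873 genes. The cause of these moves was not tested, beyond the fewer arrays or other centring that each setting has by construction.

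Signs changed for few named genes. With the mean of all probe sets DIDO1 was at 0.0226 with equal medians and 0.228 per cell, H2BC21 at 0.102, PCNA at -0.0593 and SLFN5 per cell at 0.121. On the equal-median calls, quantile normalization gave -0.148 for MYC, -0.0565 for KPNB1, -0.0607 for PCNA, -0.0796 for POU2AF1 and -0.0202 for RAN, and cyclic loess gave -0.157, -0.0536, -0.0364, -0.0642 and -0.0252 for the same genes, -0.0754 for RPL32 and -0.0623 for RPL37A. MYC was at -0.0551 as deposited and -0.0202 centred on the tested genes. BCL2L11, CREM, TENT5C and NR4A2 kept direction and call in all 33 recomputed values each.

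No pairing by replicate number was visible in the values: deviations of same-numbered low-Myc and mid-Myc arrays correlated at 0.0022 across genes. With 2 arrays per group this cannot show whether same-numbered samples were prepared together. With the replicate number as a block, 3207 genes were higher and 447 lower with equal medians, 7614 and 80 per cell, 888 and 372 under all 4 scalings, with 4712 level, 14 immediate early, 18 ribosome biogenesis and 1 DNA replication members, all within 1.5 times. Few dim genes could be bounded: of the dimmest decile 11 were bounded as level, and 4 rose and 17 fell.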
